A study of Homo sapiens with 8 samples.

Results

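miR-191 and miR-425 are microRNAs whose hairpins lie side by side in an intron of DALRD3, and the question asked here was whether the pair moved together across small RNA libraries. Rows were taken by name, accepting either arm of either hairpin, which gave 2 of the 2867 entries of the table, miR-191-5p and miR-425-5p. No 3p arm was matched, so the use of the 2 arms of a hairpin was not analysed. The libraries came from HEK293, a long-established line grown from human embryonic kidney. A first group of 4 libraries came from cells transfected with an antisense oligonucleotide (ASO) at 100 nM, a short synthetic strand that pairs with a chosen RNA, here named for miR-31. A second group of 4 came from cells without ASO, called controls, and the harvest was at 48 h in both. The labels name no unrelated ASO and do not say whether controls received transfection reagent, so the effect of this ASO and that of any transfected ASO cannot be told apart. The labels do not mention separate cultures within a group, so the p-values here rest on a spread between libraries that could be purely technical.

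An intronic microRNA starts as a hairpin within the transcript of its host gene. The nuclear enzyme Drosha cuts the hairpin out, Dicer removes the loop in the cytoplasm, and 1 strand is kept by an Argonaute protein, where bases 2 to 8 (the seed) select target messages. Hairpins of 1 intron share a transcript, but they can be cut, loaded and degraded to different extents. miR-191 has been proposed as a reference for normalising microRNA measurements, and DALRD3 encodes a protein needed for a methylation of arginine transfer RNAs.

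Both hairpins lie on the minus strand of chromosome 3 (GRCh38, GENCODE 29). MIR191 runs from 49020618 to 49020709 and MIR425 from 49020148 to 49020234, with 383 bases between them. DALRD3 has 15 annotated transcripts, and 4 of them span the hairpins, which are intronic in all 4 and lie in intron 1 of each. In the coding transcript DALRD3-201 that intron runs from 49018319 to 49020845. The other DALRD3 transcripts do not reach the hairpins. On the opposite strand NDUFAF3, which encodes an assembly factor of mitochondrial complex I, has a transcript whose first exon (49020459 to 49020570) lies between the hairpins and whose intron 1 contains MIR191.

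**Figure D1:**
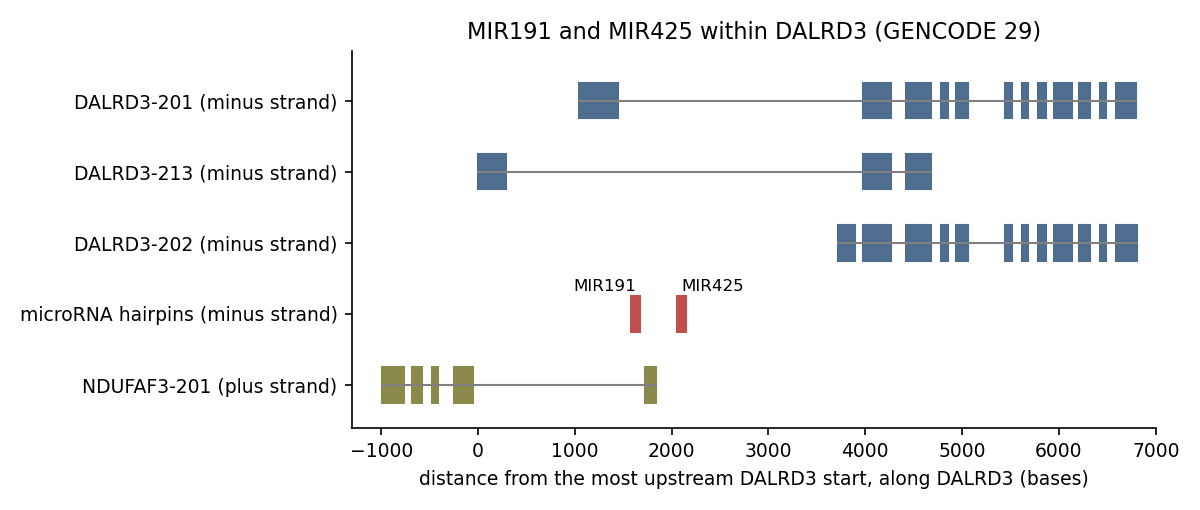
The horizontal axis is the distance in bases along DALRD3 from its most upstream annotated start, with exons as boxes and introns as lines for 3 DALRD3 transcripts and 1 of NDUFAF3. Both hairpins (red) lie in intron 1 of DALRD3-201 and DALRD3-213 and outside the shorter DALRD3-202, and an exon of NDUFAF3-201 on the other strand falls in the 383 bases between them.

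The sequences of the 2 hairpins are shown because the comparison rests on 2 products of 1 intron. They are from RefSeq (GRCh38.p14), 5′ to 3′, and capitals mark the mature arms listed there. Of the entries measured, miR-191-5p had a mature sequence listed and miR-425-5p had none.
MIR191: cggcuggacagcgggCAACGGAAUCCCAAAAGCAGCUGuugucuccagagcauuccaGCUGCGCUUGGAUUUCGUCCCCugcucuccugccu
MIR425: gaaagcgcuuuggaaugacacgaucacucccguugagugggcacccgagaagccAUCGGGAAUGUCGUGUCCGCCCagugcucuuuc
In the MIR191 hairpin the first capital run is miR-191-5p, bases 16 to 38, and the second is miR-191-3p. The capital run of the MIR425 hairpin is miR-425-3p, bases 55 to 76, an arm with no entry here. The measured miR-425-5p is not marked in it. In the mature strand below, capitals mark the seed.
miR-191-5p: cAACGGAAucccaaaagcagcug
Of the 2545 mature sequences listed, 1 carries this seed, that of miR-191-5p itself. The RefSeq sequence has 23 bases, and the deposited table gives a length of 22 for miR-191-5p and 25 for miR-425-5p.

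miR-191-5p was an abundant microRNA whose level differed 2.09-fold between the lowest and highest library. Levels are CPM, counts scaled to the library total, after TMM scaling, which adjusts library totals for differences in composition. The 4 ASO libraries, in the order of their numbers, held 107268, 154154, 157905 and 115793 counts of it, or 11007, 13021, 14202 and 11250 CPM. The 4 controls held 68496, 89852, 93823 and 137758 counts, or 6796, 9608, 11310 and 12159 CPM. Control library 1 was the lowest and ASO library 3 the highest, and the groups overlapped. Counting error was far smaller than this spread: the Wilson 95% interval of control library 1 ran from 6477 to 6574 CPM before TMM scaling, and it covers counting error only.

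miR-425-5p, by contrast, hardly differed between libraries. The ASO libraries, in the same order, held 8457, 10095, 9757 and 9126 counts, or 868, 853, 878 and 887 CPM. The controls held 9416, 8634, 7164 and 9939 counts, or 934, 923, 864 and 877 CPM. The highest value belonged to control library 1, the library with the least miR-191-5p, and the groups overlapped. The highest was 1.10-fold above the lowest. The coefficient of variation over the 8 libraries was 3.25%, where counting alone would give about 1.05%, against 20.1% and 0.302% for miR-191-5p.

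**Figure D2:**
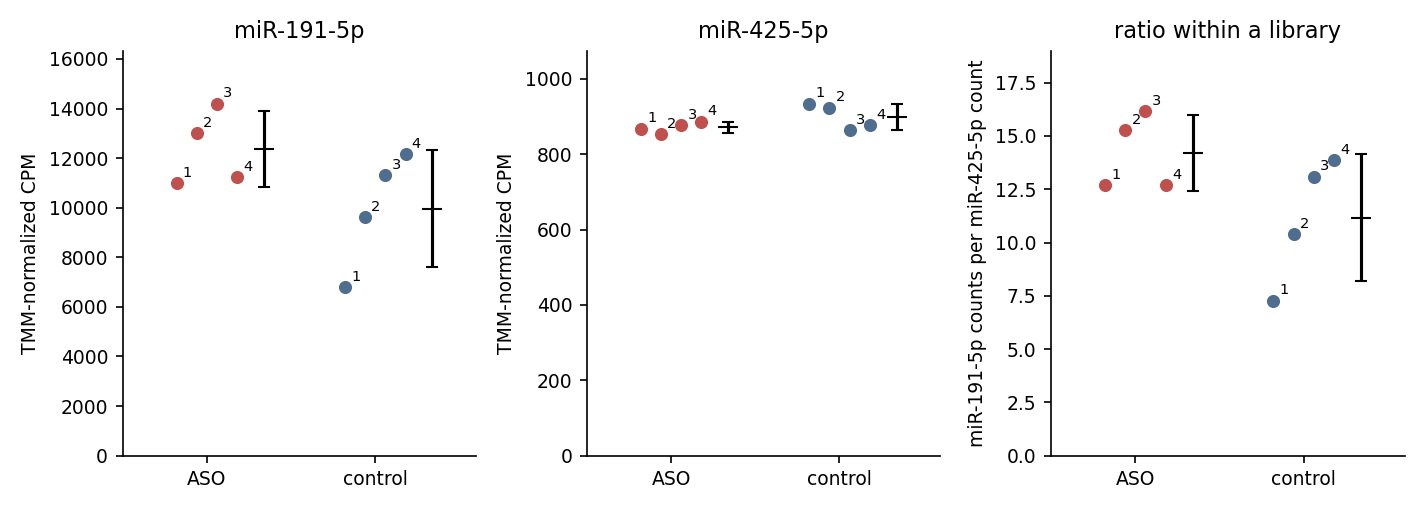
The left and middle panels show the TMM-normalized CPM of miR-191-5p and miR-425-5p in each library (red, ASO; blue, control; small digits, library number), and the right panel shows miR-191-5p counts per miR-425-5p count in the same library. Black bars are mean ± SD over 4 libraries. miR-191-5p spans 6796 to 14202 CPM, miR-425-5p 853 to 934 CPM, and the ratio is lowest in control libraries 1 and 2.

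Neither microRNA differed between ASO and control beyond the spread of the libraries. The mean level of miR-191-5p was 12370 ± 1516 CPM in the ASO group and 9968 ± 2366 CPM in the control group (SD, n = 4 each). The log2 fold change was 0.31 (SE 0.18, 95% interval −0.12 to 0.74), so the fold was 1.24 and its interval 0.923 to 1.67. edgeR's quasi-likelihood test gave an adjusted p of 0.505 over the 745 entries tested. The mean level of miR-425-5p was 871 ± 14.5 CPM in the ASO group and 900 ± 34.4 CPM in the control group, with a log2 fold change of −0.05 (SE 0.05, edgeR adjusted p = 0.725). The interval of its fold, 0.897 to 1.04, was narrow, so a change of 1.5-fold in either direction lies outside it.

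In all, 0 of the 2 entries passed the threshold of 0.05, where edgeR called 0.134% of all 745 entries. Neither had an unadjusted p under 0.05, where 78 entries (10.5%) did. DESeq2 also called 0 of the 2, where it called 21 (4.52%) of the 465 entries to which it gave an adjusted p. With 2 members, counts of 0 are near these shares. Groups that did not overlap were found in 0 of the 2 and in 8.32% of all entries. Without control library 1 the mean of the controls for miR-191-5p was 11026 ± 1299 CPM (n = 3) and its log2 fold change 0.18, which is 1.74 times smaller than with it. For miR-425-5p the log2 fold change was then −0.01.

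Since both counts come from the same library, their ratio needs no scaling between libraries. For each count of miR-425-5p there were 12.7, 15.3, 16.2 and 12.7 counts of miR-191-5p in the ASO libraries, and 7.27, 10.4, 13.1 and 13.9 in the controls, again in the order of their numbers. Adapter ligation and PCR favour some sequences, so the ratio can be compared between libraries but does not give the ratio of molecules in the cell. It was 2.22-fold higher in ASO library 3 than in control library 1. The SD of the log2 ratio over the 8 libraries was 0.36. Counting error alone would give about 0.02, but microRNA pairs also varied between these libraries beyond counting error: the pair of miR-98-5p and let-7f-5p had an SD of 0.06, where counting error would give 0.01. That SD was the smallest among the 14 other intronic pairs given below, whose median was 0.20. Over the 5050 pairs of known microRNAs with a mean of at least 500 CPM the median was 0.24.

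The mean ratio was 14.2 ± 1.79 with ASO and 11.2 ± 2.98 in controls (SD, n = 4 each). On the log2 scale, with miR-425-5p over miR-191-5p, the difference of ASO minus control was −0.38, and an exact two-sided permutation test over the 70 arrangements gave p = 0.171. The smallest p that this design allows is 0.0286. The ASO and control libraries overlapped, and without control library 1 the difference was −0.19 (exact permutation p = 0.286).

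Across the 8 libraries the pair did not move together. The Pearson correlation of log2(CPM + 1) was −0.824 (exact two-sided permutation test over all 40320 pairings, p = 0.00885; 1 pair was tested, so the adjusted value is the same). Spearman's rho was −0.619 (exact permutation p = 0.115). Without the 2 libraries farthest from the median of miR-191-5p, control library 1 and ASO library 3, r was −0.849 over 6 libraries (exact permutation p = 0.0444). On deviations from the group means r was −0.752 (permutation p = 0.0280). That p is approximate, since deviations were paired across the groups whose means had been removed.

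The size of this negative value rests on the scaling. With median-ratio scaling r was −0.879 (exact permutation p = 0.00945), and with TMM on known microRNAs only, chosen after seeing the data, −0.963 (exact permutation p = 0.00149). With CPM taken from the library total alone, miR-425-5p ranged from 834 to 905 CPM and r was −0.313 (exact permutation p = 0.421). With both that scaling and control library 1 left out it was −0.106 (exact permutation p = 0.822). The TMM factors were 0.964, 0.974 and 0.976 in control library 1, control library 2 and ASO library 1, the 3 libraries with the least miR-191-5p, and 1.01 to 1.02 in the other 5. A lower factor gives a higher CPM. The factors ran from 0.964 to 1.02, and the levels of miR-425-5p from 853 to 934 CPM with them and from 834 to 905 CPM without. With TMM scaling and control library 1 left out r was −0.636 (exact permutation p = 0.126), and without control library 2 it was −0.850 (exact permutation p = 0.0599). The value of r was below 0 under each of the 17 settings computed, leave-one-out fits included. All of them reuse the same 8 libraries, so their shared sign is not independent evidence.

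**Figure D3:**
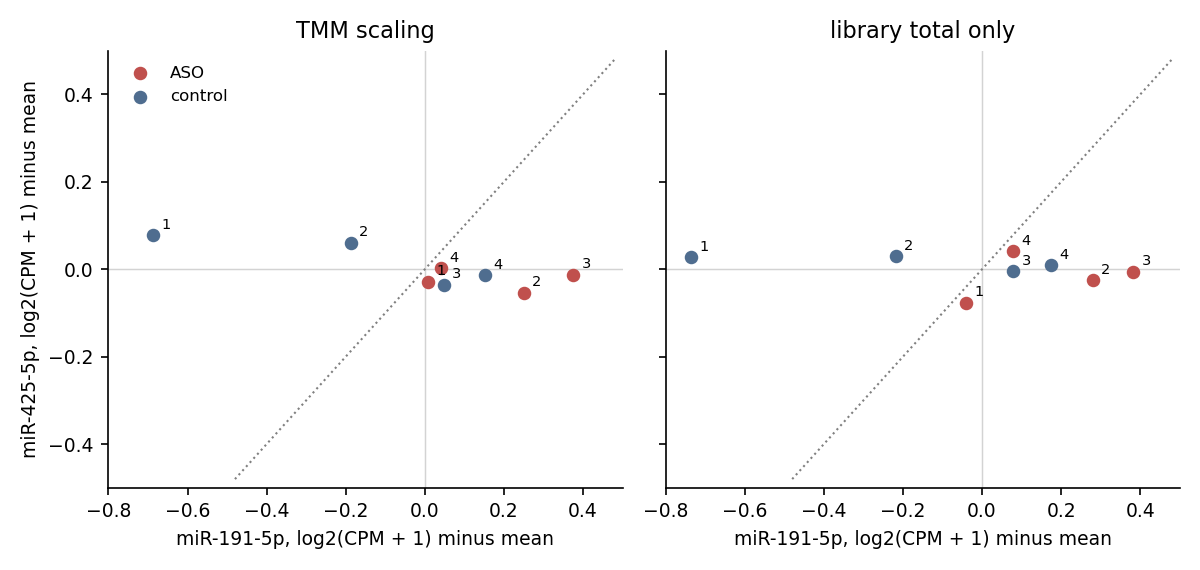
Each point is a library (red, ASO; blue, control; digits, library number), placed by its log2(CPM + 1) minus the mean over the 8 libraries, for miR-191-5p on the horizontal and miR-425-5p on the vertical axis. The dotted line marks equal change of both, and the points lie along the horizontal axis instead, with r of −0.824 under TMM scaling (left) and −0.313 with library totals alone (right).

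The pair lay far apart in how much they varied, compared with other microRNAs. Among the 539 tested known microRNAs, miR-425-5p had the 6th lowest SD of log2(CPM + 1), 0.05, and miR-191-5p came 355th with 0.32, where the median was 0.25. Low counts inflate the spread, so the same was done for the 101 known microRNAs with a mean of at least 500 CPM. There miR-425-5p came 5th from the lowest and miR-191-5p 84th, and the median was 0.15. The 4 abundant microRNAs with a lower SD than miR-425-5p, named after their values were seen, were miR-224-5p, miR-1180-3p, let-7a-5p and let-7f-5p, with SDs of 0.03 to 0.04. By mean level miR-191-5p ranked 23rd and miR-425-5p 85th of the 539. With library totals alone miR-425-5p had the lowest SD of all 539, 0.04, and with median-ratio scaling it came 9th.

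**Figure D4:**
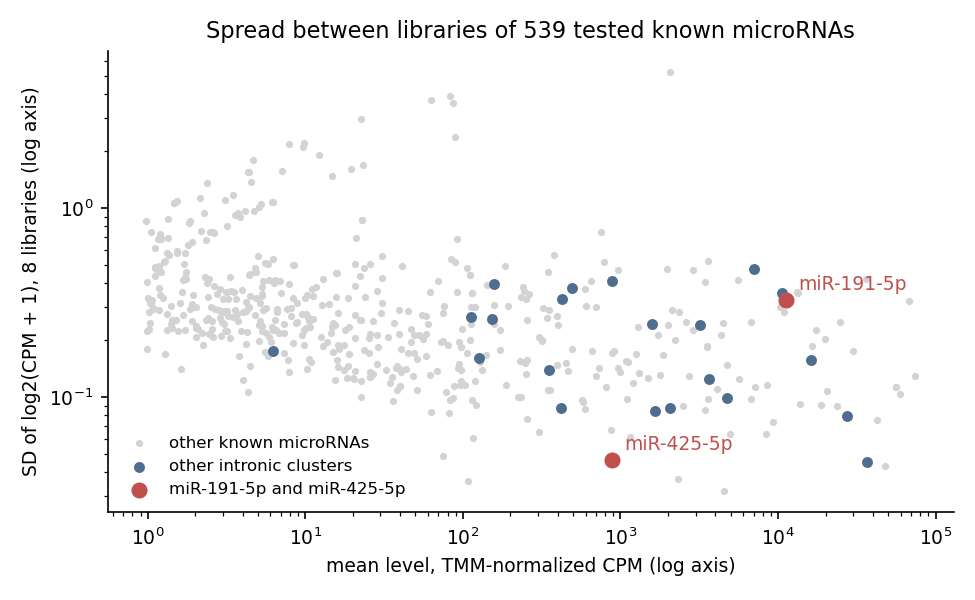
Each point is 1 of the 539 tested known microRNAs, with its mean TMM-normalized CPM on the horizontal axis and the SD of log2(CPM + 1) over the 8 libraries on the vertical axis, both logarithmic. miR-425-5p (SD 0.05) lies at the lower edge of the cloud and miR-191-5p (SD 0.32) in its upper part, among abundant microRNAs.

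By correlation over the 8 libraries miR-425-5p stood 472nd of 538 in likeness to miR-191-5p, and miR-191-5p stood 484th of 538 in likeness to miR-425-5p. Over all 144991 pairs of known microRNAs the median r was 0.01, with quartiles of −0.384 and 0.407, and 4.20% of pairs had an r as low as that of this pair. Among the 5050 pairs of known microRNAs with a mean of at least 500 CPM, as both members had, the share was 14.1%. All entries share the same libraries and totals, so these values describe the table and carry no test.

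The 5 known microRNAs most like miR-191-5p, picked as the highest r among 537 others, were miR-577 (0.993), miR-484 (0.992), miR-708-5p (0.991), miR-483-3p (0.991) and miR-17-5p (0.987). All 5 were at their lowest in control library 1, as miR-191-5p was. miR-17-5p, of the proliferation-promoting miR-17-92 cluster, ranged from 1413 to 3910 CPM, and miR-484, which is made without Drosha, from 1390 to 2609 CPM. Their r with miR-425-5p lay between −0.860 and −0.781, and none of the 5 passed the threshold in edgeR's test of ASO against control.

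The 5 most like miR-425-5p were miR-3661 (0.959), miR-183-5p (0.947), miR-3662 (0.946), miR-1303 (0.945) and miR-6866-5p (0.932), and all 5 were at their highest in control library 1. miR-183-5p, of the sensory organ cluster miR-183/96/182, was the most abundant of them and ranged from 6491 to 8429 CPM. The other 4 averaged 15.7 to 731 CPM. Their r with miR-191-5p lay between −0.913 and −0.803.

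The ASO's namesake, miR-31-5p, moved with miR-191-5p across the libraries, as other microRNAs also did. It was not lower with ASO: its level was 776, 916, 1018 and 637 CPM in the ASO libraries and 350, 657, 880 and 1056 CPM in the controls, in order of number (log2 fold change 0.19, edgeR adjusted p = 0.851). The groups overlapped, and it gave no check of the labels. Its r was 0.939 with miR-191-5p, or 0.943 with library totals alone, and −0.802 with miR-425-5p, or −0.379 with library totals alone. Such an r with miR-191-5p was not particular to miR-31-5p. Of the 21 entries of other intronic hosts described below, 8 had an SD above the median of known microRNAs. All 8 had an r with miR-191-5p above 0.9.

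Other hairpins that share an intron of a protein-coding gene gave both kinds of pattern. A list of 22 hairpins in 7 other hosts was used, and 21 had a tested entry. Most of these had only 1 entry listed, which stood for the hairpin. Where 2 were listed (MIR16-2, MIR24-1 and MIR500A) the most abundant was used. Both miR-301a-5p and miR-106b-3p were the only entries listed for their hairpins, so the arms compared need not be the main ones. In edgeR's test 0 of the 21 passed the threshold (4 had an unadjusted p under 0.05, against 10.5% of all entries, and DESeq2 called 1, miR-454-3p, with a log2 fold change of 0.51 and an adjusted p of 0.0463, against 4.52% of all entries). The fold was above 1 in 17 and below 1 in 4, with a median log2 fold change of 0.10, against 0.01 over all 745 entries, of which 51.7% had a fold above 1. Neighbouring hairpins formed 14 pairs, each within 1 intron of at least 1 annotated transcript. Their median r was 0.667, but 0.160 without control library 1, and 0.779 with library totals alone. The r was above 0 in 10 of the 14 pairs, in 10 without control library 1 and in 11 with library totals alone.

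Pairs that moved together included miR-15b-5p and miR-16-5p of SMC4, a condensin gene, with an r of 0.967. miR-16-5p ranged from 479 to 1139 CPM and miR-15b-5p from 263 to 570 CPM, and the SD of their log2 ratio was 0.12. miR-98-5p and let-7f-5p of HUWE1, a ubiquitin ligase gene, had an r of 0.722 and the smallest SD of the log2 ratio, 0.06. In AOPEP, an aminopeptidase gene, r was 0.798 for miR-23b-3p with miR-27b-3p and 0.612 for miR-27b-3p with miR-24-1-3p. Without control library 1 these AOPEP values were 0.247 and 0.384. The mature strands of miR-16, let-7f, miR-24 and miR-30c are also made from other loci, so their entries need not come from the host named.

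The chloride channel gene CLCN5 carries the longest such cluster. From miR-500a-3p through miR-362-5p, miR-501-3p and miR-660-5p to miR-502-3p, the r of neighbours was 0.797 to 0.920, or 0.128 to 0.757 without control library 1. The 3p strands of miR-500a, miR-501 and miR-502 are close in sequence, so reads may be shared between their entries. miR-532-5p at the head of the cluster was at its highest in control library 1, 4325 CPM, and its r with its neighbour miR-188-5p was −0.343, which turned to 0.051 without that library. miR-188-5p averaged 6.28 CPM, and counting error alone would give an SD of 0.18 in the log2 ratio of either of its pairs.

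In the remaining pairs 1 member varied more than the other. In MCM7, which encodes a subunit of the replicative helicase, miR-93-5p ranged from 3483 to 9743 CPM while miR-25-3p ranged from 24970 to 29435 CPM and miR-106b-3p from 3146 to 4170 CPM. The r of miR-93-5p was −0.842 with miR-106b-3p and −0.013 with miR-25-3p. In NFYC, which encodes a subunit of a CCAAT-binding factor, miR-30c-5p ranged from 6281 to 13647 CPM and miR-30e-5p from 4275 to 5304 CPM, with an r of 0.066. In SKA2, a spindle gene, miR-454-3p ranged from 281 to 603 CPM and miR-301a-5p from 102 to 145 CPM, with an r of −0.523. A 3p arm is set against a 5p arm in that pair, in both pairs of MCM7 and in 8 of the 14 pairs in all.

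Among the other 14 pairs, 7.14% (1 pair) had an r as low as that of miR-191-5p and miR-425-5p, and 21.4% (3 pairs, those of MCM7 and SKA2) had as large an SD of the log2 ratio. The median SD of the log2 ratio was 0.20 over these 14 pairs and 0.24 over the 5050 pairs of known microRNAs with a mean of at least 500 CPM, of which 28.5% reached that of the DALRD3 pair. The DALRD3 pair thus lay within the range of the other intronic pairs on both measures, and no test set it apart. The pairs that reached its values all set a 3p arm against a 5p arm, while the DALRD3 pair is of 5p arms. Among pairs of like arms the lowest r was −0.343 (miR-532-5p with miR-188-5p). The largest SD there was 0.363 (miR-30e-5p with miR-30c-5p). The DALRD3 r of −0.824 lay below the first, and its SD of 0.364 was nearly equal to the second. This split by arm was not planned, and miR-188-5p averaged only 6.28 CPM. With library totals alone r was −0.377 for miR-532-5p with miR-188-5p and −0.313 for the DALRD3 pair.

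Over the 21 entries of these hosts the r with miR-191-5p was above 0 in 15 and below 0 in 6, with a median of 0.855. It was 0.979 for miR-93-5p, 0.973 for miR-16-5p, 0.972 for miR-30c-5p, 0.951 for miR-15b-5p and 0.924 for miR-454-3p, and each was at its lowest in control library 1. These 5 were singled out after their values were seen and are not the 5 highest. The highest was miR-502-3p, with 0.981. miR-23b-3p (0.961), miR-660-5p (0.948) and miR-500a-3p (0.935) also lay above miR-454-3p. The lowest were miR-532-5p, with −0.942, and miR-106b-3p, with −0.861, and their r with miR-425-5p was 0.921 and 0.756.

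**Figure D5:**
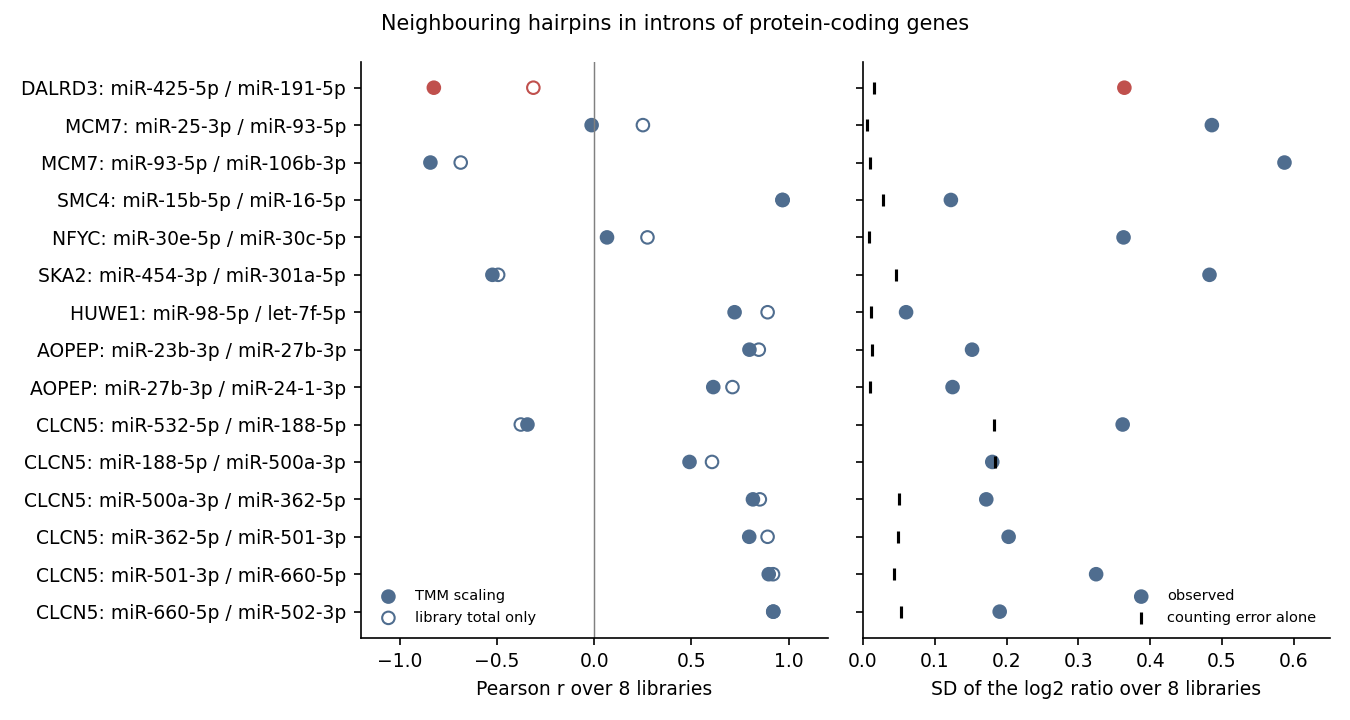
Each line is a pair of neighbouring hairpins in a host gene (red, DALRD3; blue, the 14 other pairs). The left panel gives Pearson's r over the 8 libraries with TMM scaling (filled) and library totals alone (open), and the right panel gives the SD of the log2 ratio with the part that counting error would give (black ticks). The DALRD3 pair lies at −0.824 and −0.313 on the left and at 0.36 on the right, where the other pairs span 0.06 to 0.59.

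Over the whole series, library totals ran from 8168828 to 11677123 counts, and that of control library 1, 10496804, lay within the range of the others. No microRNA is known that marks HEK293 alone. Of 15 markers of blood, liver, muscle, neural, mesenchymal and endothelial cells 10 had an entry, and 4 of these averaged under 10 counts. Their summed level was 3907 to 4566 CPM with ASO and 4389 to 4660 CPM in controls, most of it miR-9-5p, a neural microRNA. These ranges overlapped. The liver marker miR-122-5p stood at 29.7 ± 7.34 CPM in the ASO group and 12.1 ± 2.02 CPM in the control group (log2 fold change 1.30, edgeR adjusted p = 0.0516), with groups that did not overlap. For the other markers tested the log2 fold change was 0.19 (miR-1-3p), 0.15 (miR-145-5p), −0.10 (miR-9-5p), −0.09 (miR-143-3p) and −0.02 (miR-126-3p). The part of these differences in the results above was not tested.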

How the data were processed

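Per the labels' protocols, total RNA of 8 HEK293 samples was isolated by Qiagen miRNeasy and prepared with the NEB small RNA kit. The submitters' processing notes list bcl2fastq 2.20, Trimmomatic 0.30, edgeR 3.4.6 and GRCh38; no aligner, counter or source of microRNA names is given in the sources used here. The authors deposited 1 table with a raw count per entry and library, and columns headed TPM that are CPM (counts over the library total, with no division by length). The tests used the counts. The deposited length per entry was only described.

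The fit took entries with a mean count of 10 or more that were above 0 in 4 or more of the 8 libraries: 539 known and 206 predicted, holding 99.4% of counts. edgeR 4.0.16 (R 4.3.3) used TMM scaling, trended dispersion and its quasi-likelihood test, with Benjamini-Hochberg adjustment at 0.05. The code was tested on simulated counts. Standard errors are the log2 fold change over the square root of F. Correlations used log2(CPM + 1), a pseudocount of 1, and permutation over all pairings, exact except for deviations from group means. Other microRNAs were named by rule: for each other intronic hairpin its most abundant entry, and for each member the 5 with the highest r. Alternatives were other scalings, filters, DESeq2 1.42.0, a replicate block and leaving out each library. The members, lists and tests were chosen with earlier results of these data known. The labels do not say that library numbers mark pairs, and the main fit has no block.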

Additional observations from a re-analysis of the deposited data

How the results depend on the processing

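The log2 fold change of miR-191-5p was lowest, 0.18, without control library 1 and highest, 0.42, without control library 4 over the 14 alternatives, with adjusted p between 0.244 and 0.767. That of miR-425-5p stayed between −0.07 and −0.01, with adjusted p between 0.455 and 0.921, and neither passed the threshold in any of them. The correlation of the pair no longer passed with library totals alone (−0.313), with library totals alone and deviations from group means (−0.0912) or with library totals alone and control library 1 left out (−0.106); the last 2 were chosen after seeing the data. With each library left out in turn it ran from −0.881 to −0.636 and did not pass without control library 1 or control library 2. The library number as a replicate block gave 0.34 (edgeR adjusted p = 0.509) for miR-191-5p, −0.05 (edgeR adjusted p = 0.771) for miR-425-5p and, for the log2 ratio, −0.38 (exact sign permutation p = 0.25, where the smallest possible is 0.125). Over all entries the block moved the calls from 1 to 0. Deviations of same-numbered libraries correlated at 0.00726, 0.0344, 0.297 and −0.0394, and 2 of 8 libraries were best matched by their own number, so the numbers were not taken as pairs. Leaving out each library moved the difference in log2 ratio between −0.50 and −0.19, with exact permutation p between 0.0857 and 0.286. Calls over all entries ran from 0 (no filter) to 5 (mean count of at least 100) among the edgeR settings with all libraries, and DESeq2 made 21. The 2 alternatives for the other intronic clusters kept 0 calls and medians of 0.09. The planned comparison of 5p with 3p arms and the correlations among further entries could not be run, since 1 entry per hairpin was matched.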
